A study of Equus caballus with 6 samples.

Results

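The 4 genes described here are SAMD9, OAS2, OASL and IFI27, antiviral genes of the horse that type I interferon is known to induce. Their members on the array are the 11 non-control probes whose transcript identifier belongs to one of these genes in RefSeq, out of 43603 probes and 829 genes that could be given a symbol. The genes come from an interferon response list with earlier results of these arrays known: SAMD9, OAS2 and OASL were chosen by their unadjusted p after against before exercise within that earlier list, which is not the list used below, and IFI27 with its levels in view. The changes of the 4 genes after exercise, and their levels in the single horses, are therefore given as a description, with no p-value, and their counts of calls stand only beside those of all probes.

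Leukocytes were collected from the buffy coat, where white cells gather when blood is centrifuged, of 3 gelding (neutered) warmblood horses. Horses 1, 2 and 4 were 11, 7 and 15 years old per the sample labels, while the series text gives a range of 9 to 17 years that leaves out horse 2. Each was sampled once before and once after exercise, which gave 3 arrays a group, and no further treatment of the animals is named. The labels of the later samples carry 60 min, whereas the protocol places the sampling directly around the exercise, so the time is not settled here. Whole buffy coat holds several cell types, and fewer cells of a type cannot be told apart from less RNA per cell. The question addressed by the design is which leukocyte transcripts differ after exercise.

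Interferons released by infected or alerted cells bind receptors on neighbouring cells, and the JAK and STAT proteins then switch on a large set of genes that limit viral growth. The 2′-5′-oligoadenylate synthetases, to which OAS1, OAS2 and OAS3 belong, sense double-stranded RNA and make a short oligoadenylate that serves as an antiviral signal in the cell. OASL is the family's member best known for enhancing RNA sensing by RIG-I, SAMD9 is a cytoplasmic factor that restricts poxviruses, and IFI27 is a small membrane protein whose transcript in blood is widely used as a marker of an interferon response. In the RefSeq assembly TB-T2T, OAS2, OAS3 and OAS1 are consecutive protein-coding genes on 1 chromosome, and OASL lies apart from them on the same chromosome.

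Signals are given as the log2 of the array's processed signal minus the log2 of that array's 75th percentile, so that 0 is the 75th percentile and 1 unit is a doubling. The percentile itself lay between 1124 and 2536 signal units, and 64.1% to 69.4% of non-control spots were well above background on each array. All 11 probes were well above background on all 6 arrays, and none of their spots was saturated, marked as an outlier or placed in the first array column, where the horse 4 array before exercise had dark spots. Of 2 slides, slide 2 carried horses 1 and 2 before exercise and slide 1 the other 4 arrays, so that the change in horses 1 and 2 also spans the slides and that in horse 4 does not.

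SAMD9 was lower after exercise in all 3 horses. Its brighter probe (A_69_P078661) had log2 signals of 0.82, 1.49 and 0.78 before exercise in horses 1, 2 and 4, and of 0.38, 0.25 and 0.27 after it. The groups did not overlap, with the highest array after exercise lying 0.40 below the lowest before. The mean was 1.03 ± 0.40 (SD, n = 3) before and 0.30 ± 0.07 (SD, n = 3) after exercise, a log2 change of -0.73 (SE 0.24), or a 1.66-fold lower signal. Horse 2 stood out before exercise and not after it, so that its change of -1.24 exceeded those of -0.44 in horse 1 and -0.51 in horse 4.

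The other SAMD9 probe (A_69_P078662) gave the same picture. It had 0.79, 1.37 and 0.56 before and 0.16, -0.04 and 0.08 after exercise, with changes of -0.63, -1.40 and -0.48 in horses 1, 2 and 4 and a mean change of -0.84 (SE 0.25). The changes of the probes differed by 0.19, 0.17 and 0.03 in horses 1, 2 and 4. Lower signal in all 3 horses was found for 11.5% of the 29351 probes measured on all arrays, and every array after lying below every array before for 3.80%. Within slide 1 alone, the 3 arrays after exercise lay on average 0.48 below the horse 4 array before exercise. The haemoglobin genes HBB and HBA2, 2 of 9 red cell markers listed, had a median change of 0.91, 2.48 and 0.24 in horses 1, 2 and 4. The largest rise was in horse 2 also for the neutrophil, monocyte, T cell and NK cell markers, and not for the B cell and platelet markers. The part of any of these cells in the SAMD9 values was not tested.

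**Figure D1:**
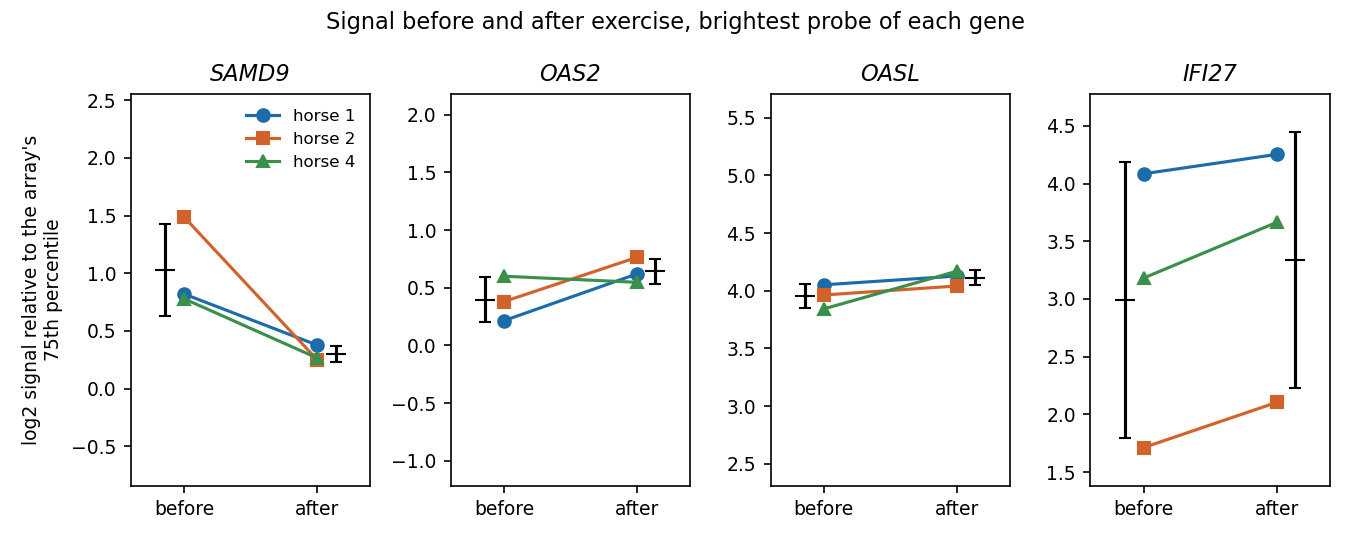
Log2 signal relative to the array's 75th percentile for the brightest probe of SAMD9, OAS2, OASL and IFI27, before and after exercise; lines join the samples of a horse, black bars give the mean and SD of 3 arrays, and every panel spans the same number of log2 units. SAMD9 lies lower after exercise in each horse, at 0.25 to 0.38 against 0.78 to 1.49 before, while the IFI27 lines stay apart by horse.

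SAMD9L, the gene most closely related to SAMD9, had the sign of SAMD9 in horses 1 and 2 and the other sign in horse 4. Its brighter probe had 3.22, 3.43 and 2.39 before and 2.73, 2.54 and 2.70 after exercise in horses 1, 2 and 4. The changes were -0.49 and -0.89 in horses 1 and 2 and 0.31 in horse 4, with a mean of -0.36 (SE 0.30, adjusted p = 0.999 in limma). The second SAMD9L probe shifted in the same directions, by -0.78, -0.97 and 0.25. In horse 4, whose arrays share a slide, SAMD9 was thus lower and SAMD9L higher after exercise, a difference that was not tested.

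OAS2 was higher after exercise in horses 1 and 2 and lower in horse 4, on all 6 of its probes. The brightest probe (A_69_P000231) had 0.21, 0.38 and 0.60 before and 0.62, 0.76 and 0.55 after exercise in horses 1, 2 and 4. The 2 groups overlapped, since horse 4 had the highest value before exercise and the lowest after it. The mean was 0.40 ± 0.19 (SD, n = 3) before and 0.64 ± 0.11 (SD, n = 3) after, a log2 change of 0.25 (SE 0.19) or a signal 1.19 times as high.

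The other 5 OAS2 probes agreed closely with one another and placed horse 4 lower than the brightest probe did. Their changes ran from 0.17 to 0.42 in horse 1, from 0.23 to 0.54 in horse 2 and from -0.36 to -0.27 in horse 4, where the brightest probe had -0.05. Over the 3 horses their mean changes ran from 0.04 to 0.16, all below that of the brightest probe. The SD of the change over the 6 probes was 0.09, 0.11 and 0.12 in horses 1, 2 and 4, so that the gap between horse 4 and the other horses was larger than the spread between probes. The split is not particular to OAS2 or SAMD9L. Over all probes measured on 6 arrays, the changes of horses 1 and 2, which also span the slides, correlated at 0.60. Those of horse 4 correlated with them at -0.10 and -0.12. Probes of 1 gene share the RNA of a sample and are not replicates of the exercise effect.

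OASL showed the smallest range of the 4 genes on its brighter probe, and its probes disagreed on the direction. The brighter probe (A_69_P001271) had 4.05, 3.96 and 3.84 before and 4.13, 4.04 and 4.17 after exercise in horses 1, 2 and 4. All 6 arrays therefore lay within 0.33 of each other, and the groups overlapped. The changes were 0.08, 0.08 and 0.33, with a mean of 0.16 (SE 0.17). The dimmer probe (A_69_P001272) had 0.73, 0.43 and 0.24 before and 0.54, 0.15 and 0.53 after exercise, which gave changes of -0.19, -0.28 and 0.28 and a mean of -0.06 (SE 0.22). Both probes were higher after exercise in horse 4, and they differed in sign in horses 1 and 2. For all 11 probes of the 4 genes the sign of the change in each horse was the same with normexp, quantile and median normalization, while the mean of the dimmer OASL probe turned to 0.03 with the median and those of 2 dimmer OAS2 probes to -0.02 and -0.03 with normexp.

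**Figure D2:**
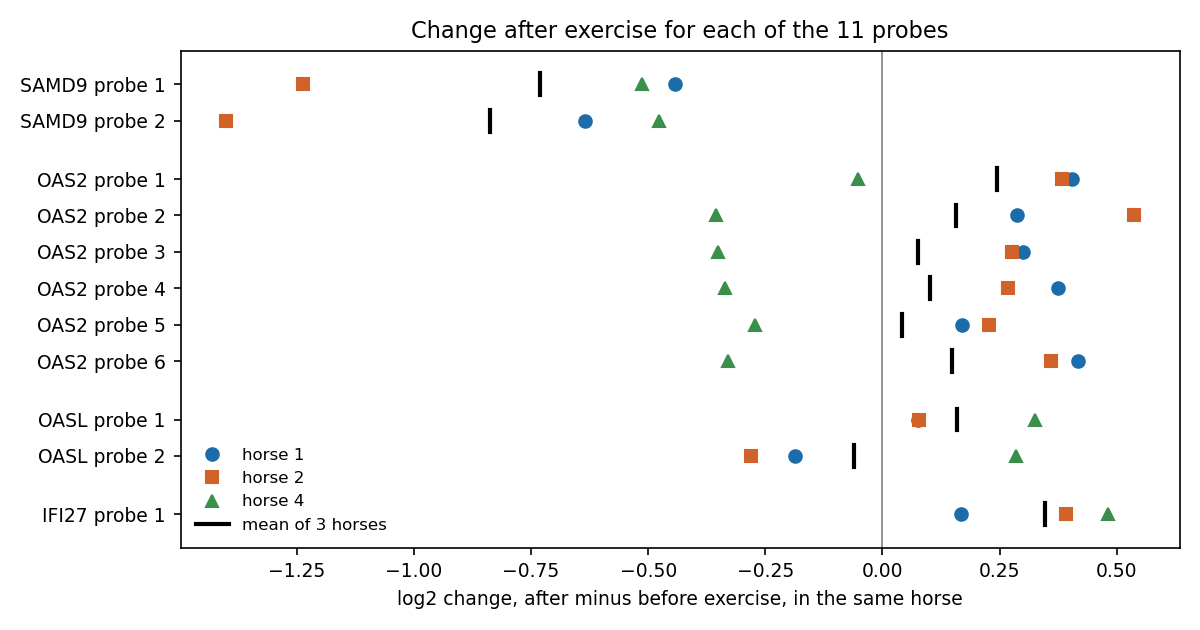
Log2 change after minus before exercise in the same horse, for each of the 11 probes, ordered within a gene from the brightest probe down; symbols are the 3 horses and black bars their mean. Both SAMD9 probes lie below 0 in every horse, all 6 OAS2 probes lie above 0 in horses 1 and 2 and below 0 in horse 4, and the OASL probes fall on both sides of 0.

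The IFI27 signal differed far more between horses than between the samples of a horse. Its only probe (A_69_P001486) had 4.09, 1.71 and 3.18 before and 4.25, 2.10 and 3.66 after exercise in horses 1, 2 and 4. The order of the horses, 1 above 4 above 2, was the same before and after exercise, and the groups overlapped. After exercise the signal was higher in all 3 horses, by 0.17, 0.39 and 0.48, with a mean change of 0.35. Its SE was 0.74 without a block, which includes the spread between horses, and 0.16 with the horse as a block. Higher signal in all 3 horses was found for 17.3% of probes. The group means were 2.99 ± 1.20 (SD, n = 3) before and 3.34 ± 1.11 (SD, n = 3) after exercise.

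The gap between horses in IFI27 was present on each slide. Horse 1 exceeded horse 2 by 2.37 before exercise, where both arrays lay on slide 2, and by 2.15 after exercise, where both lay on slide 1. These are 5.18-fold and 4.44-fold differences in signal. On slide 1 after exercise, horse 1 was 0.59 above horse 4 and horse 4 was 1.56 above horse 2. Averaged over its arrays, the highest horse had 4.80 times the IFI27 signal of the lowest.

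The spread between animals, taken as the SD of the 3 horse means, was compared with the spread within pairs, the SD left within horses after the mean change is removed. The first is over averages of a horse's arrays and the second is per array. A ratio of 1 therefore does not mark the absence of a difference between horses. For IFI27 the SD between horses was 1.15 and that within pairs 0.11, a ratio of 10.08. For the brightest probes of SAMD9, OAS2 and OASL the SD between horses was 0.18, 0.09 and 0.05 and that within pairs 0.31, 0.18 and 0.10, with ratios of 0.59, 0.49 and 0.49. Over the 6 arrays the SD between horses was thus the larger of the 2 for IFI27 and the smaller for the other 3 genes. Over all probes measured on 6 arrays the median SD was 0.24 between horses and 0.23 within pairs, with a median ratio of 0.999, and 1.68% of probes had a ratio at least as high as that of IFI27. The ratios of these 3 genes depended on single horses: that of SAMD9 was 1.54 without horse 2, 5.20 without its array before and 15.3 without its array after exercise, and that of OASL was 2.30 after quantile normalization. Without horse 2, the lowest animal, the IFI27 ratio was 3.36, and without horse 4 the OAS2 and OASL ratios were 10.3 and 57.5, since the pairs of horses 1 and 2 changed almost alike.

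**Figure D3:**
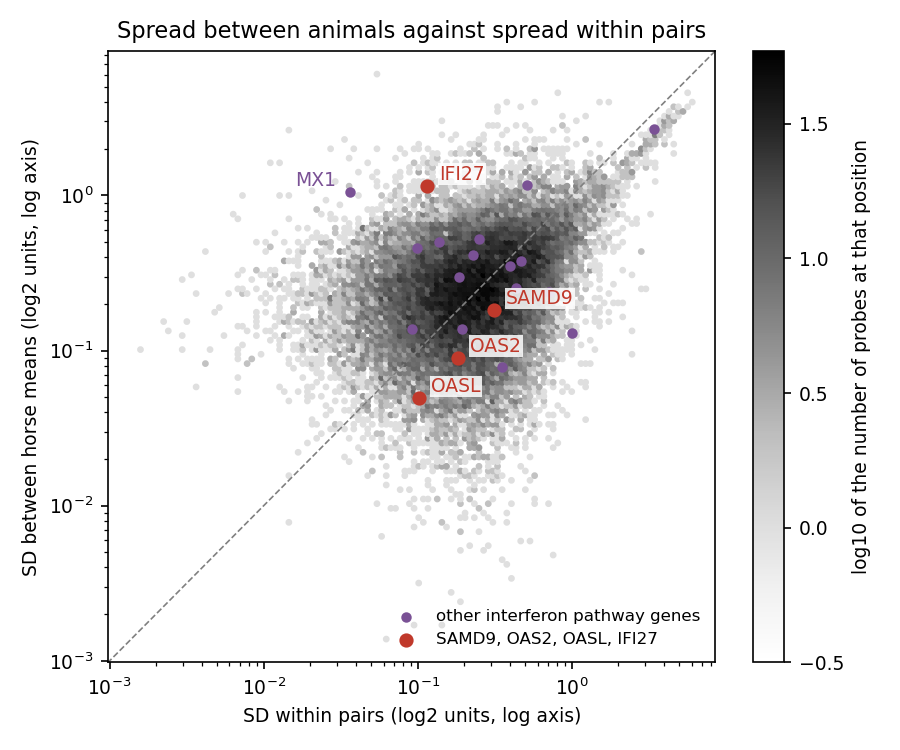
SD of the 3 horse means against the SD within pairs, both in log2 units on log axes, for all probes measured on 6 arrays (grey, shaded by the number of probes), the 4 genes (red) and the other interferon pathway genes (purple); the dashed line marks equality. IFI27, at 1.15 between horses and 0.11 within pairs, and MX1 lie far above the line, and SAMD9, OAS2 and OASL below it.

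In the fit across all probes, limma called 0 of the 11 probes after against before exercise at an adjusted p under 0.05, where the call rate was 0% of 29570 probes and 855 probes (2.89%) lay at an unadjusted p under 0.05. The horse as a block left the count of called probes at 0, with 1798 probes (6.08%) at an unadjusted p under 0.05. The count over all probes moved with the samples and the fit. It was 595 without the horse 4 array before exercise (13 higher, 582 lower) and 20 without horse 4 (0 higher, 20 lower). With array weights it was 1638 (137 higher, 1501 lower). It also moved with slide as a block. There only the horse 4 array before exercise shares a slide with arrays after it, so that 1 array sets the change and nothing is read from the calls. Between the horses, limma's F-test called 0 of the 11 probes at an adjusted p under 0.05, where the test called 70 of 29552 probes (0.237%) and 15.5% lay at an unadjusted p under 0.05. That count also moved with single arrays, from 0 without either array of horse 1 to 461 without the horse 4 array after exercise. The IFI27 probe was called between horses with normexp background correction, where 91 of 29552 probes were, and with array weights, where 360 were. Since the members were chosen with these contrasts known, nothing is read from their counts.

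The interferon pathway lists hold 122 gene names, some of which are synonyms for the same gene. From these, 16 genes besides the 4 could be named and had a probe kept. In limma 0 of these 16 passed the test for exercise in either direction, none had an unadjusted p under 0.05, and 7 had a higher and 9 a lower mean, against 9 higher and 7 lower with median normalization. With the horse as a block 0 of the 16 passed as well, at a smallest adjusted p of 0.753 in limma. Their median log2 change was -0.06, against 0.04 over all probes. The lists were drawn up with earlier results of these arrays known.

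Among the induced genes, 8 of 64 listed were measured besides the 4, and their median change was -0.06. OAS1, which lies next to OAS3, had 3.99, 4.73 and 4.65 before and 4.14, 5.15 and 4.87 after exercise in horses 1, 2 and 4. Its brightest probe was thus higher in all 3 horses, with a mean change of 0.26 (SE 0.33, adjusted p = 0.999 in limma), and 3 of its 4 probes were higher in each horse, 1 of which lost that agreement with normexp and quantile normalization. With the horse as a block, the SE of the brightest OAS1 probe was 0.16 (adjusted p = 0.753 in limma). OAS3 had -0.24, 0.61 and -0.45 in the 3 horses, with a mean of -0.03 (SE 0.32). The synthetase genes therefore shared no direction in horse 4, where the brightest probes of OAS1 and OASL were higher and those of OAS2 and OAS3 lower under each of the 4 scalings. EIF2AK2, the kinase that stops translation on sensing double-stranded RNA, had -0.18 (SE 0.32), and the T cell-attracting chemokines CXCL9 and CXCL10 had -0.09 (SE 0.38) and 0.15 (SE 0.38).

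MX1, a GTPase that blocks influenza and other viruses, also had a wide spread between horses beside a narrow one within them. Its brighter probe had 2.85, 1.72 and 0.79 before and 2.95, 1.81 and 0.80 after exercise in horses 1, 2 and 4. The change was 0.10, 0.09 and 0.01, and the horses stood in the order 1, 2, 4 at both times. The SD between horses was 1.05 and that within pairs 0.04, and the dimmer probe had 1.02 and 0.007. The F-test between horses did not pass for MX1 (adjusted p = 0.080 in limma). It passed with normexp background correction at an adjusted p of 0.045 and with array weights at 0.040.

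The order of the horses differed between the induced genes. Horse 1 was highest for both IFI27 and MX1, but horse 2 was lowest for IFI27 and horse 4 for MX1. OAS1 had the reverse of the IFI27 order, with log2 signals averaging 4.06, 4.94 and 4.76 in horses 1, 2 and 4 against 4.17, 1.91 and 3.42 for IFI27. CXCL10 had -3.50, -4.52 and -4.22, in the order of IFI27, although 3 of its 5 probes had the other sign of change after exercise. Of the 8 induced genes besides the 4, 0 passed the F-test between horses in limma, where 0.891% of 561 named genes did. At an unadjusted p under 0.05 lay 4 of these 8, by their brightest probes, against 15.5% of all probes, named or not. The median ratio of the SD between horses to that within pairs was 1.66 for these 8 genes, against 0.999 over all probes. Since both figures over all probes include dim and unnamed ones, no excess among the induced genes is read from them.

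Of the interferon, signalling and sensor genes, 0 passed the exercise test without a block, and 1, PIAS3, passed with slide as a block. IFNG, the type II interferon, had a mean change of -0.49 (SE 0.48) and PIAS3, an inhibitor of STAT3 signalling, one of 2.71 (SE 2.26), but the brightest IFNG probe and the PIAS3 probe lie in the first array column. Without that column on the horse 4 array before exercise, their changes were -0.03 and -0.23, and within slide 1 alone PIAS3 was called with it (log2 change 8.58, adjusted p = 0.0009 in limma). IFND1, an interferon delta, had -0.23 (SE 0.23) and SOCS3, a feedback inhibitor of cytokine signalling, 0.08 (SE 0.35). The endosomal RNA and DNA sensors TLR3, TLR7, TLR8 and TLR9 had -0.23 (SE 0.79), 0.02 (SE 0.26), -0.14 (SE 0.20) and 0.21 (SE 0.36), and 1 probe each of TLR7 and IFNG had the other sign. With the horse as a block, the SE of these 4 sensors were 0.32, 0.18, 0.18 and 0.16. TLR9 was higher in all 3 horses, by 0.11, 0.44 and 0.09.

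**Figure D4:**
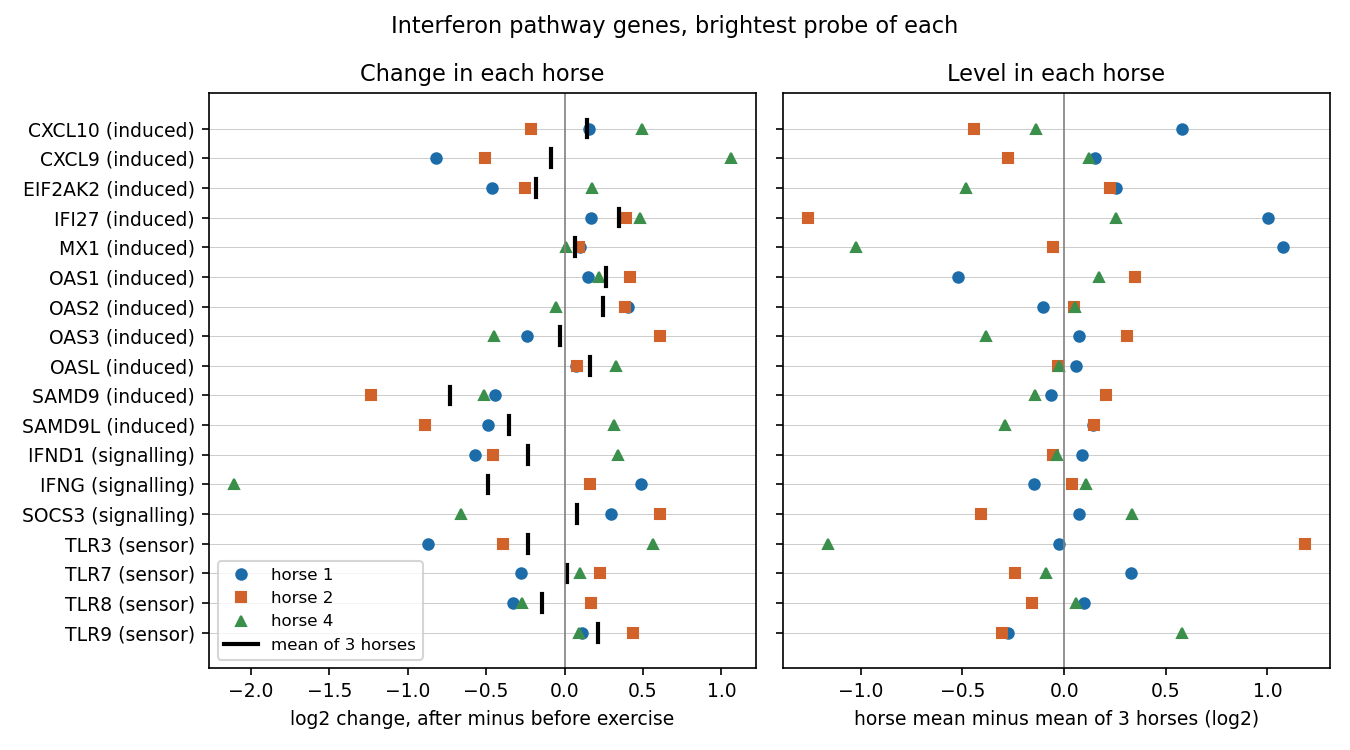
Left, log2 change after minus before exercise in each horse and its mean (black bar) for interferon pathway genes, by their brightest probe; right, the mean of a horse minus the mean of the 3 horses. PIAS3, whose probe lies in the first array column, is left out. SAMD9 lies below 0 in all 3 horses, and IFI27, MX1 and TLR3 show wide gaps between horses. TLR3 is far dimmer, at log2 signals of -6.11 to -3.28, against 1.71 to 4.25 for IFI27 and 0.79 to 2.95 for MX1. Its SD within pairs is also larger, at 0.52 against 0.11 for IFI27 and 0.04 for MX1.

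The genes most like each of the 4 were found among 555 other named genes by the root mean square difference of their log2 signals over 6 arrays, after each gene was centred on its own mean. Those nearest to SAMD9 were CENPJ, a centriole protein, at 0.18, CILP2, a cartilage matrix protein, at 0.18, and the vomeronasal receptor EQUCABV1R928 at 0.20, against a median of 0.58 over all genes. After exercise CILP2 passed the background mark on 2 arrays and EQUCABV1R928 on 1, so their values there are near background. OAS2 was nearest to SYNJ2BP, a mitochondrial outer membrane protein (0.08), CD44, the hyaluronan receptor (0.09), and PATL1, an mRNA decay factor (0.10), with a median of 0.38. OASL was nearest to NSMCE2 (0.07), BSDC1 (0.08) and CD1A (0.08), with a median of 0.35. A gene that did not vary at all would lie at 0.43 from SAMD9, 0.18 from OAS2, 0.11 from OASL and 0.96 from IFI27. Nearness to OASL therefore shows little beyond small variation. IFI27 was nearest to TNFAIP6, a hyaluronan-binding protein, at 0.15, then to GM2A, a lysosomal lipid-binding protein, at 0.42 and SDC2, a syndecan, at 0.46, with a median of 0.96. TNFAIP6 averaged -3.89 in horse 1, -5.95 in horse 2 and -4.59 in horse 4 on the log2 signal scale, the order of IFI27, and was well above background on 2 of 3 arrays before exercise.

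Markers of the blood cell types moved unequally in the horses. The median change of 6 of 9 monocyte markers measured was 0.41, 0.68 and -0.38 in horses 1, 2 and 4, that of 3 of 10 T cell markers 0.23, 0.75 and -0.47, and that of 5 of 9 NK cell markers 0.37, 0.46 and -0.48. These have the signs of the OAS2 change in each horse, and their part in it was not tested. Over all probes, too, the changes of horses 1 and 2 correlated (0.60) and those of horse 4 did not follow them (-0.10 and -0.12). The mean log2 signal of the monocyte list ran from 0.71 to 1.49 before and from 1.21 to 1.65 after exercise, that of the T cell list from -1.71 to -0.18 and from -1.04 to -0.65, and that of the NK cell list from 1.94 to 2.99 and from 2.36 to 2.68. For 3 of 15 neutrophil markers the median change was 0.15, 0.41 and 0.12, with signals from 1.47 to 2.96 before and 2.37 to 2.75 after exercise. The 3 of 7 B cell markers had -0.17, -0.20 and 0.29, and the 3 of 7 platelet markers 0.19, -0.03 and -0.15. The mean log2 signal of the haemoglobin genes ran from 1.27 to 7.67 before and from 3.75 to 7.91 after exercise. In limma 0 members of these lists passed the test for exercise, and the 3 pan-leukocyte genes listed could not be named on the array here.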

How the data were processed

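Cy3-labelled total RNA of each of the 6 samples was read on its own Agilent horse array in 1 colour, per the labels. The deposited signal is an intensity with the background subtracted by Feature Extraction 10.10.1.1 and no scaling between arrays, per the file headers, with flags for each spot beside it. The header names the EquCab1 build, so no coordinate of TB-T2T is given, and no nucleotide or protein sequence was used here.

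From the signal, log2 was taken, the 75th percentile over 43803 non-control spots subtracted, outlier spots dropped and spots of a probe averaged. The 29571 probes well above background on at least 3 of 6 arrays were kept. Probes were named through unversioned RefSeq transcripts (1904 with a symbol). Each gene is represented by the kept probe of highest mean signal.

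The fits used limma 3.58.1 under R 4.3.3 (lmFit, eBayes): a two-sided test of exercise without a block, and a moderated F-test of the 3 horses that also fits exercise. P-values were adjusted by Benjamini-Hochberg over every probe tested, and 0.05 was the limit for a call. SE are moderated, from 3 against 3 arrays, and include the spread between animals. The number of arrays limits the precision. Horse numbers pair samples of the same animal, and the correlations of same-numbered deviations across probes were 0.36, 0.40 and 0.23. The scripts were tested on simulated data. The members and lists were chosen with earlier results of these data known. The named genes are all probes of the 4 genes, every listed interferon pathway gene with a kept probe (1 of which is not reported here), and the 3 genes nearest to each of the 4.

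Alternatives were normexp (offset 50, on the median spot signal, as no mean signal was used here), quantile and median normalization, other filters, flagged spots kept, the first array column of 1 array left out, the mean of a gene's probes, horse and slide as blocks, slide 1 alone, array weights, and each horse or array left out.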

Additional observations from a re-analysis of the deposited data

How the results depend on the processing

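SAMD9 kept its lower value after exercise under all 22 alternatives run (-0.87 to -0.48), and OASL its higher value (0.05 to 0.33). Except in the mean of a gene's probes, OASL was there taken by its brighter probe, while its dimmer probe had a mean change of -0.06. The SAMD9 groups did not overlap, so leaving out a horse or an array, or using slide 1 alone, could not turn its sign. The other filters, the flagged spots, the first array column and the replicate block left the mean changes of all 4 genes as they were. The kept sign of SAMD9 is therefore a description and no separate support. IFI27 ran from -0.29 to 0.97, below 0 without the horse 1 array after exercise or the horse 2 array before it, which unbalances the horses. The replicate block by horse left the means of SAMD9, OAS2, OASL and IFI27 at -0.73, 0.25, 0.16 and 0.35 and gave SE of 0.22, 0.18, 0.16 and 0.16. It changed no call.

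OAS2 changed by 0.044 with slide as a block and by 0.044 in slide 1 alone, and by -0.053 with the replicate block and slide together, a fit that leaves the pair of horse 4 to set the value. OASL had 0.27, 0.27 and 0.33 in these fits, 0.062 after quantile and 0.25 after median normalization, and 0.050 as the mean of its probes. Median normalization moved the median of all probes to 0.13. That median was 0.054 after quantile normalization and 0.043 with the mean of a gene's probes, close to the OASL values there.

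Probes called for exercise numbered 132 with slide as a block, 117 with the replicate block and slide, 122 in slide 1 alone, 1638 with array weights, and 0 to 595 with a horse or an array left out. Of the 16 other pathway genes 1, PIAS3, was called in each of the first 3 of these fits. Probes called between horses numbered 1 after quantile normalization, 2 without a filter, 1 with flagged spots kept, 1 with slide as a block, 360 with array weights, and 0 to 461 with a horse or an array left out. The cause was not tested. Of the 16 other pathway genes, those called between horses were 1 (MX1) with normexp and with array weights, and 0 to 1 with arrays left out. IFI27 was also called with normexp and with array weights, from which nothing is read, as it was chosen with its levels in view.

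The ratio of the SD between horses to that within pairs was 0.78 for OASL with normexp and 2.30 after quantile normalization, and 17.9 for IFI27 after median normalization. With a horse or an array left out it ran from 0.35 to 15.3 for SAMD9, 0.0065 to 10.3 for OAS2, 0.020 to 116.6 for OASL and 3.36 to 26.1 for IFI27, so that IFI27 alone stayed above 1 throughout. The mean of a gene's probes gives no count over probes and was not run for it.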
